A study of Canis lupus familiaris with 15 samples.

Results

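The 4 probes covered here, of 160 on a custom NanoString panel, measure genes of lipid sensing or of oxidation of foreign and endogenous small molecules. They are the nuclear receptors PPARG (NM_001024632.2) and PPARA (NM_001003093.1), the cytochrome P450 enzyme CYP1B1 (NM_001159684.1) and the flavin-containing monooxygenase FMO1 (NM_001003061.1). They were chosen by matching probe accessions, without version numbers, to dog genes in RefSeq. The rule itself uses no measured value, though the genes were picked with earlier results of these data known. NanoString hybridises each RNA molecule to a barcoded reporter and counts the barcodes without amplification. RNA came from archival, paraffin-embedded skin of 15 dogs.

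Biopsies came from 7 dogs with discoid lupus erythematosus (DLE, aged 1 to 13 years, median 6), from 1 dog aged 7 with chronic cutaneous lupus in which systemic lupus was suspected (CCLE), and from 1 dog aged 6 with mucocutaneous lupus (MLE). A dog aged 9 with pyoderma, a bacterial skin infection, was a diseased control. Its record had earlier named it DICLE. The 5 healthy samples were leg margin excisions re-used from another study, with no age given. Where on the body the lesions lay is not stated, so lesion and site cannot be told apart. No treatment was recorded for any group.

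PPARG and PPARA are receptors that bind fatty acids and their derivatives, pair with retinoid X receptors and switch on genes of lipid metabolism. In human and mouse skin PPARG is best known from sebaceous gland cells and fat cells, where it drives differentiation, and PPARA from fatty acid oxidation and the lipids of the epidermal barrier. CYP1B1 oxidises polycyclic aromatic hydrocarbons, oestrogens and retinoids and is a known target of the aryl hydrocarbon receptor. FMO1 oxidises nitrogen- and sulphur-containing drugs, mainly in liver and kidney, depending on the species.

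Counts summed over the panel ranged from 495839 to 587169 in DLE dogs and from 209889 to 675018 in healthy dogs. Each dog's own background limit, 2 SD above the mean of 8 low spike-in control rows, lay between 13.6 and 30.0 counts. Normalised counts are counts scaled between dogs by TMM, a trimmed mean of log ratios over the panel. The TMM factor of DLE dog 3 was 0.445, while the remaining DLE dogs had 0.975 to 1.07 and healthy dogs 0.985 to 1.46. Which control rows were high differed between dogs. All 9 dogs with DLE, MLE or pyoderma showed one pattern and all 6 healthy and CCLE dogs the other. DLE and healthy dogs thus cannot be told apart from this pattern, and values within each pattern are given below. Spike-in scaling, used below, divides by the sum of the 6 high control rows of each dog. These were not the same rows in DLE and healthy dogs.

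Both nuclear receptors and CYP1B1 were lower in DLE skin than in healthy leg skin. Of these 3, PPARG differed most in fold, and CYP1B1 was the one whose normalised counts did not overlap between the groups. PPARA lay close to background, and FMO1 did not rise above background in either group as a whole. In the fit over all 154 probes tested (edgeR's quasi-likelihood test, Benjamini-Hochberg adjusted p under 0.05), 95 probes were called, which is 61.7% of those tested, and 24.0% were called lower in DLE. Beside that share, all 4 genes were called lower, but the call of FMO1 rests on counts at background and that of PPARA did not hold under several scalings or without single dogs. With the control-row pattern as a block none of the 4 was called (edgeR adjusted p from 0.228 to 0.608).

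PPARG was above the background limit in 15 of 15 dogs. In DLE dogs its normalised counts were 78.8 at the lowest, 134 at the median and 583 at the highest. In healthy dogs 1 to 5 they were 945, 1537, 373, 519 and 3375. The 6 DLE dogs other than dog 6 lay below every healthy dog, whereas DLE dog 6 lay above healthy dogs 3 and 4, so the groups overlapped.

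PPARG averaged 179 ± 180 normalised counts in DLE dogs (SD, n = 7) and 1350 ± 1219 in healthy dogs (n = 5), a 7.52-fold lower level. The log2 change was -2.91 ± 0.63 (SE, edgeR adjusted p = 0.00129), the third lowest of the 154 probes tested. Healthy dogs themselves spanned 9.04-fold, and 7 of 158 probes varied more between healthy dogs (SD of the log2 count 1.26 for PPARG, 0.53 at the median over all probes). Within DLE, the range was 7.41-fold and came from dog 6. Without both DLE dog 6 and healthy dog 5, the highest dog of each group, the log2 change was -2.91 (edgeR adjusted p = 0.000122), a choice made after the values were seen. Without healthy dog 5 alone it was -2.23, and without DLE dog 6 alone -3.59.

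**Figure D1:**
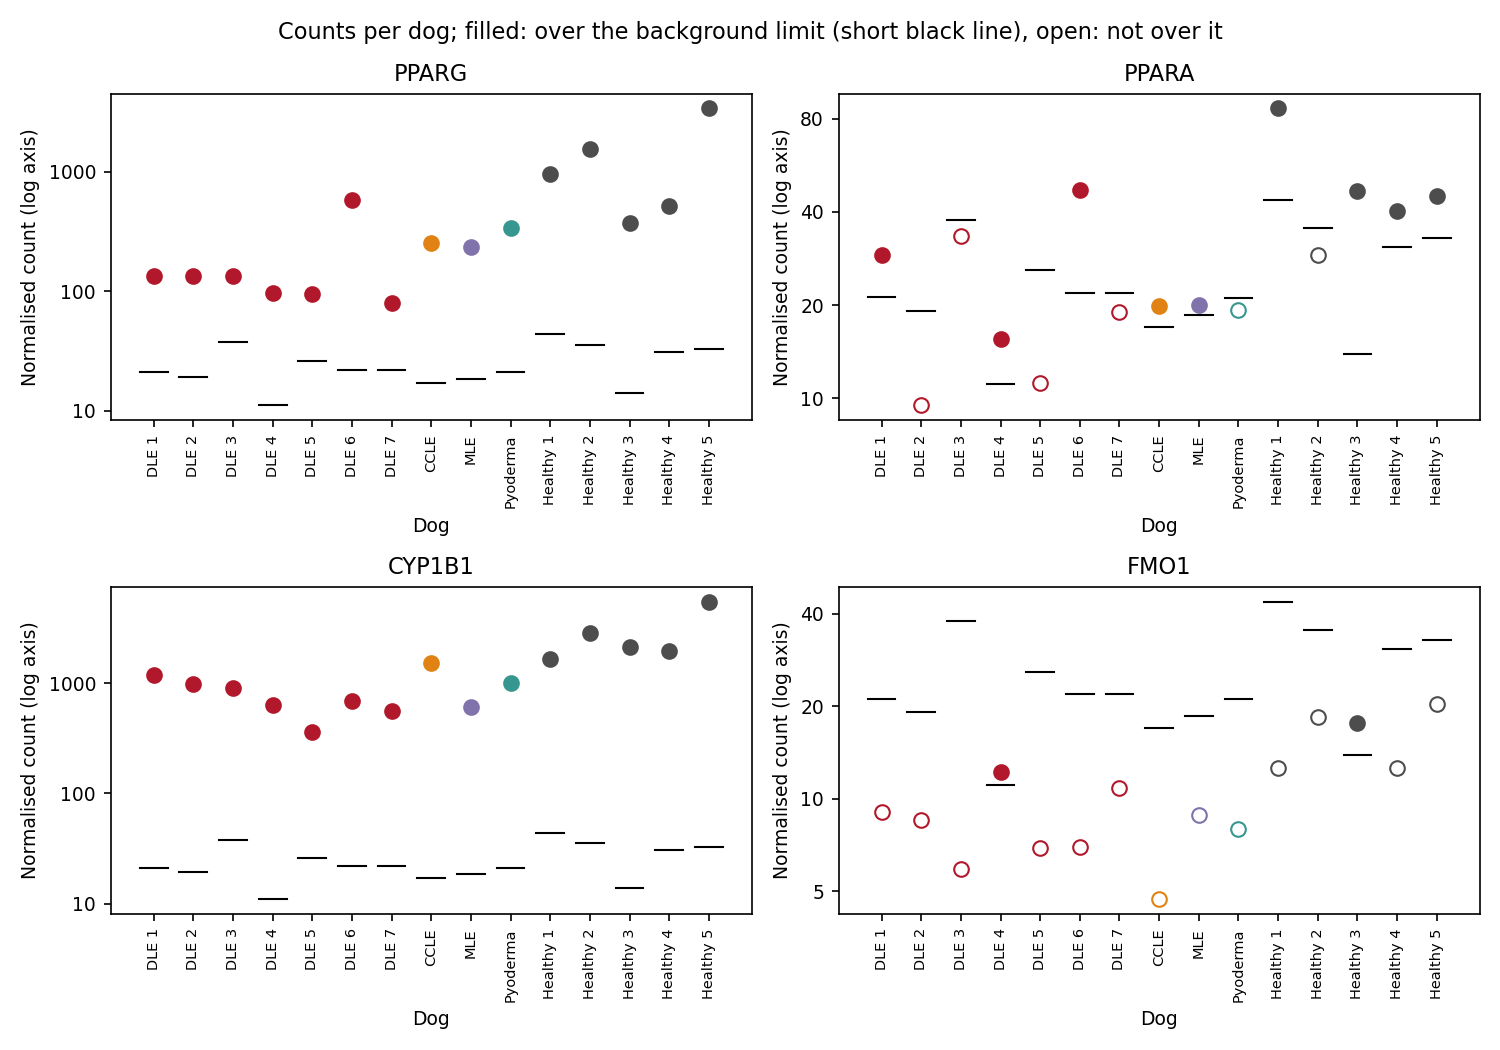
Normalised count of each gene (log axis) in each dog, by group, with the background limit of each dog as a short black line. Filled points lie over the limit and open points do not. PPARG and CYP1B1 lie over the limit in all 15 dogs, PPARA in 9 and FMO1 in 2.

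PPARG was also set against single reference genes within each dog, since these do not depend on TMM. HPRT1 encodes an enzyme of purine salvage and RPL13A a ribosomal protein. Per 1000 HPRT1 counts, PPARG had 315 ± 363 counts in DLE dogs (SD, n = 7) and 1542 ± 1113 in healthy dogs (n = 5). Per 1000 RPL13A counts it had 12.2 ± 12.5 in DLE dogs and 42.6 ± 33.2 in healthy dogs. By either measure the DLE mean was lower and the ranges overlapped.

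PPARA, the receptor tied to fatty acid oxidation, gave few counts. It passed the background limit in 3 of 7 DLE dogs, in the CCLE and MLE dogs, not in the pyoderma dog and in 4 of 5 healthy dogs. Its raw counts ran from 10 in DLE dog 2 to 47 in DLE dog 6, and in healthy dogs between 22 (dog 2) and 77 (dog 3). A count of 10 has an exact Poisson interval (95%) of 4.80 to 18.4, and a count of 77 one of 60.8 to 96.2, which cover counting error only.

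The normalised counts of PPARA were 9.49, 19.0 and 46.9 at the lowest, the median and the highest of the DLE dogs. In healthy dogs 1 to 5 they were 86.5, 29.1, 46.9, 40.2 and 44.9. DLE dogs 3 and 6 reached into the healthy range and the other 5 lay below it, DLE dog 1 (29.1) only just. The lower edge of that range, healthy dog 2, was itself not over its limit (22 counts, limit 26.8). Nor was DLE dog 3 (17 counts, limit 19.2), whose TMM factor was 0.445. Positions against this edge are therefore positions at background. The means were 23.5 ± 13.6 in DLE dogs (SD, n = 7) and 49.5 ± 21.8 in healthy dogs (n = 5), and edgeR's log2 change was -1.08 ± 0.41 (SE, adjusted p = 0.0326). With the 4 DLE dogs not over the limit set to their limit, the DLE mean was 28.0.

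The call of PPARA did not hold under several alternatives. It ended with reference gene scaling (log2 -0.36, edgeR adjusted p = 0.444), with spike-in scaling (-0.79, adjusted p = 0.204) and after subtraction of the background (-1.60, adjusted p = 0.0738). Leaving out a single dog ended it for DLE dog 2, 4, 5 or 7 and for healthy dog 1 or 3, with edgeR adjusted p between 0.0510 and 0.111. Per 1000 RPL13A counts, PPARA had 1.51 ± 0.83 in DLE dogs (SD, n = 7) and 1.57 ± 0.39 in healthy dogs (n = 5), a difference smaller than the spread between dogs. Per 1000 HPRT1 counts it had 39.6 ± 26.2 in DLE dogs and 62.7 ± 31.3 in healthy dogs, a lower DLE mean with overlapping ranges.

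CYP1B1, the P450 enzyme, was above the background limit in 15 of 15 dogs. Its normalised counts were 357, 684 and 1178 at the lowest, the median and the highest of the DLE dogs. Healthy dogs 1 to 5 had 1642, 2834, 2111, 1951 and 5456. Every DLE dog lay below every healthy dog, which held for 11.4% of the 158 probes. Healthy dog 5 was the highest, as it was for PPARG, but DLE dog 6 lay at the DLE median.

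CYP1B1 averaged 758 ± 281 normalised counts in DLE dogs (SD, n = 7) and 2799 ± 1549 in healthy dogs (n = 5), a 3.69-fold lower level. The log2 change was -1.88 ± 0.35 (SE, edgeR adjusted p = 0.000532). It stayed called without any 1 dog, between -2.03 and -1.49, the smaller change being that without healthy dog 5. Per 1000 HPRT1 counts the ranges did not overlap, at 616 to 1823 in DLE dogs and 2207 to 5247 in healthy dogs. The share of all probes without overlap on this scale was not worked out. Per 1000 RPL13A counts they overlapped, at 24.1 to 87.7 in DLE dogs and 39.9 to 139 in healthy dogs.

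FMO1, the flavin monooxygenase, had raw counts of 3 to 15 in DLE dogs and 8 to 29 in healthy dogs. It passed the limit only in DLE dog 4 (15 counts, limit 13.6) and healthy dog 3 (29 counts, limit 22.8). Its normalised counts averaged 8.65 ± 2.28 in DLE dogs (SD, n = 7) and 16.3 ± 3.59 in healthy dogs (n = 5). The low control rows, which carry no gene, averaged 12.3 ± 3.01 in DLE dogs and 16.3 ± 6.07 in healthy dogs on the same scale.

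The fit called FMO1 lower in DLE (edgeR adjusted p = 0.00347), and no DLE dog reached the lowest healthy dog. Such a separation held for 11.4% of the 158 probes. For FMO1 it lay between 12.2 normalised counts in DLE dog 4 and 12.6 in healthy dog 4, the latter not over its limit. The DLE mean lay below that of the low control rows and the healthy mean equalled it to 3 digits, so no fold is given and FMO1 was not detectable above background in these groups. Once the background was subtracted, FMO1 no longer passed the filter on low counts. The call also ended with reference gene scaling (adjusted p = 0.591) and spike-in scaling (adjusted p = 0.400).

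The scaling moved the median change of all probes, and changes are therefore also given relative to that median. Subtracting the median largely cancels a scaling that multiplies each dog by 1 factor, so closeness of these values between scalings tests nothing. The median probe is also not known to be unchanged. Quantile scaling, unlike the others, does not multiply each dog by 1 factor, so it can also move probes relative to one another. Spike-in scaling rests on control rows that were not the same in DLE and healthy dogs, so it cannot be told apart from the control-row pattern. Over all probes the median log2 change came to 0.42 for TMM, 1.09 for reference genes, 0.72 for spike-ins, 0.18 for DESeq2 size factors, -0.14 for quantile scaling and -0.24 for the panel median. PPARG was called lower under all 6 scalings, at log2 -3.50 to -2.04. Relative to the median probe its change was -3.33 under TMM and between -3.35 and -2.91 under the 6. CYP1B1 was called lower under all 6 as well, at -2.49 to -1.14, and relative to the median probe at -2.31 under TMM and -2.31 to -1.59 over the 6. PPARA lay -1.72 to -1.45 from the median probe and was called under 4 of the 6. Of the reference genes themselves, which were not tested, RPL13A stood under TMM at 15334 ± 3412 normalised counts in DLE dogs (SD, n = 7) and 31090 ± 8566 in healthy dogs (n = 5). HPRT1 differed less, at 614 ± 80.4 in DLE dogs and 811 ± 134 in healthy dogs. Reference gene scaling uses both.

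**Figure D2:**
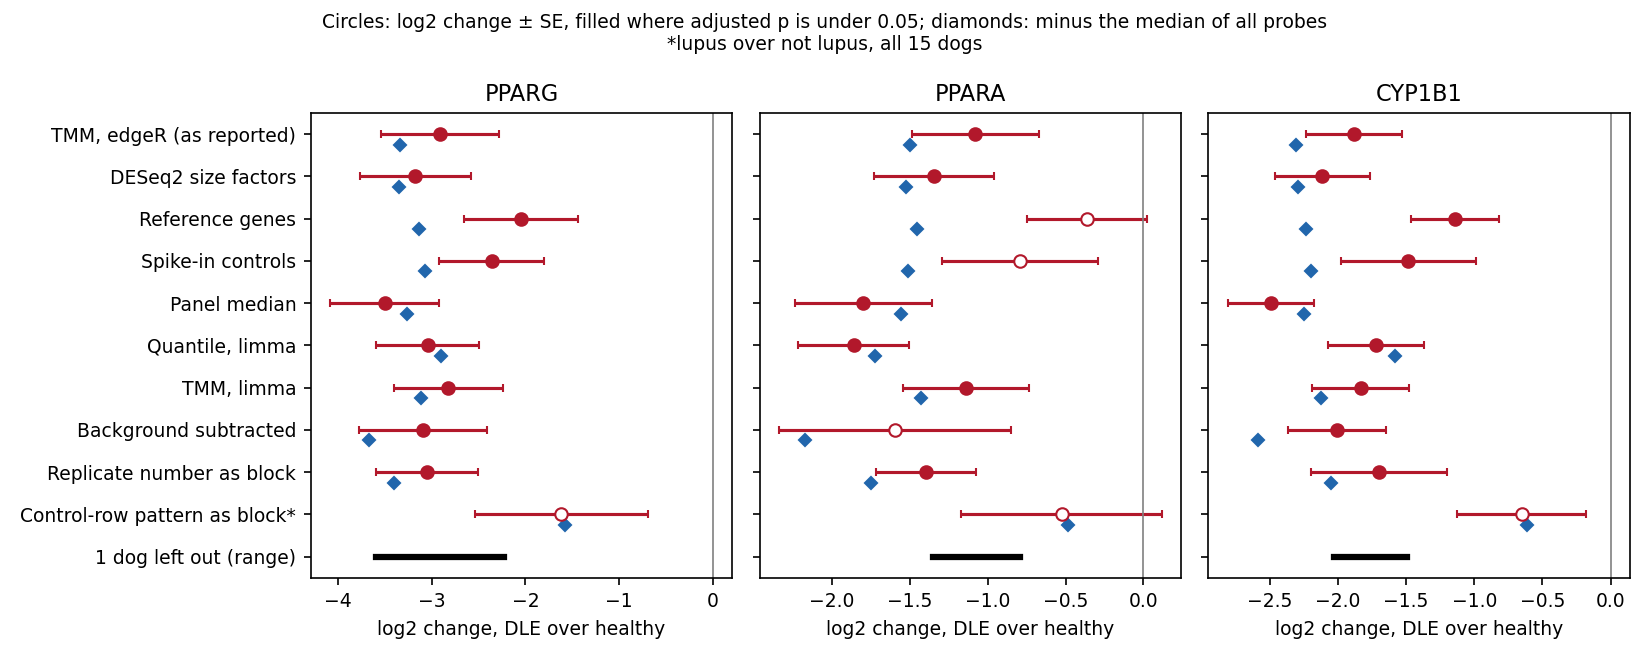
Log2 change of PPARG, PPARA and CYP1B1, DLE over healthy (circles, with SE, filled where the adjusted p is under 0.05), under each scaling, test and block, with the change minus the median of all probes as diamonds and the range with 1 dog left out as a black bar. Over the 6 scalings the circles of PPARG span -3.50 to -2.04 and its diamonds -3.35 to -2.91. Subtracting the median largely cancels a scaling by 1 factor per dog, so close diamonds test nothing. All 3 circles are open with the control-row pattern as a block.

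The control-row pattern was set as a block in a fit of all 15 dogs, which compared the 9 lupus dogs (DLE, CCLE and MLE) with the 6 others (pyoderma and healthy). In that fit 26.0% of probes were called and 3.90% were called lower in lupus. None of the 4 genes was called. The log2 changes were -1.62 ± 0.92 for PPARG (SE, edgeR adjusted p = 0.228), -0.53 ± 0.64 for PPARA (adjusted p = 0.608) and -0.65 ± 0.47 for CYP1B1 (adjusted p = 0.342). Only the CCLE and pyoderma dogs separate lupus from pattern in this fit, and the pyoderma sample is itself diseased skin.

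Within the pattern shared by the CCLE and healthy dogs, the CCLE dog lay below all 5 healthy dogs for PPARG, by log2 -1.96 from their mean, against a healthy SD of 1.26. It lay below all 5 for PPARA (-1.18, SD 0.56) and for CYP1B1 (-0.73, SD 0.68). The lowest healthy dog for PPARA was itself not over its background limit. Within the other pattern, the 8 DLE and MLE dogs averaged -1.18 from the pyoderma dog for PPARG, with 7 of 8 below it. For CYP1B1 they averaged -0.52, with 7 of 8 below it, and for PPARA 0.07, with 4 of 8 below it. Each of these sets 1 dog against a group and has no test.

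Across diagnoses, PPARG stood at 254 normalised counts in the CCLE dog, 233 in the MLE dog and 338 in the pyoderma dog. These 3 values lay below the healthy range and inside the DLE range, each above the 6 lower DLE dogs. Of all probes, 62.7% lay inside the DLE range in the CCLE dog, 72.8% in the MLE dog and 69.6% in the pyoderma dog. In all, 9 of 10 lesional dogs lay below every healthy dog for PPARG, the exception being DLE dog 6. The share of all probes with such a count over the 10 lesional dogs was not worked out, here or for CYP1B1 and PPARA. The pyoderma dog, which has no lupus diagnosis, was among the 9.

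CYP1B1 stood at 1525 normalised counts in the CCLE dog, 607 in the MLE dog and 1003 in the pyoderma dog. All lay below the healthy range, as did 10 of 10 lesional dogs, and the CCLE dog also lay above every DLE dog. PPARA stood at 19.9 in the CCLE dog, 20.01 in the MLE dog and 19.3 in the pyoderma dog, close to their limits, where 8 of 10 lesional dogs lay below every healthy dog. The lowest healthy dog for PPARA was itself not over its limit. By comparison, 34.2% of probes lay below all healthy dogs in the CCLE dog, 34.2% in the MLE dog and 26.6% in the pyoderma dog. The positions of these 3 dogs depend on the scaling. With spike-in scaling 1 of the 3 genes (PPARG, PPARA, CYP1B1) lay below all healthy dogs in the CCLE dog, and none did in the MLE and pyoderma dogs. With reference gene scaling 1 did in the MLE dog and none in the pyoderma dog.

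Ratios of 2 genes within a dog do not depend on scaling, and show whether the genes differed by unequal amounts. The 6 pairs of the 4 genes were compared by an exact two-sided permutation test over every split of the 12 dogs, with adjustment over the 6 pairs. The 3 pairs with FMO1 are not read, since that gene lay at background. The log2 ratio of PPARG to CYP1B1 averaged -2.34 ± 1.00 in DLE dogs (SD, n = 7) and -1.36 ± 0.80 in healthy dogs (n = 5). The difference of -0.99 had an exact p of 0.105 (adjusted p = 0.157), with 5 of 7 DLE dogs below all healthy dogs. Without DLE dog 6 it was -1.34 (exact permutation, adjusted p = 0.0195), the only 1 of 12 single omissions that passed. The other omissions had adjusted p from 0.0591 to 0.323 (exact permutation).

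The log2 ratio of PPARG to PPARA averaged 2.71 ± 0.74 in DLE dogs (n = 7) and 4.38 ± 1.44 in healthy dogs (n = 5), lower by 1.67 on average (exact permutation p = 0.0215, adjusted p = 0.0429). It was lower than in any healthy dog in 5 of 7 DLE dogs. After background subtraction the difference was -0.81 (exact permutation, adjusted p = 0.509). The call also ended without any 1 of 10 dogs, the exceptions being DLE dog 6 and healthy dog 3 (exact permutation, adjusted p from 0.0519 to 0.109). PPARA to CYP1B1 did not pass the test, at -5.05 ± 0.83 in DLE dogs and -5.74 ± 1.04 in healthy dogs (difference 0.68, exact p = 0.230, adjusted p = 0.276).

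**Figure D3:**
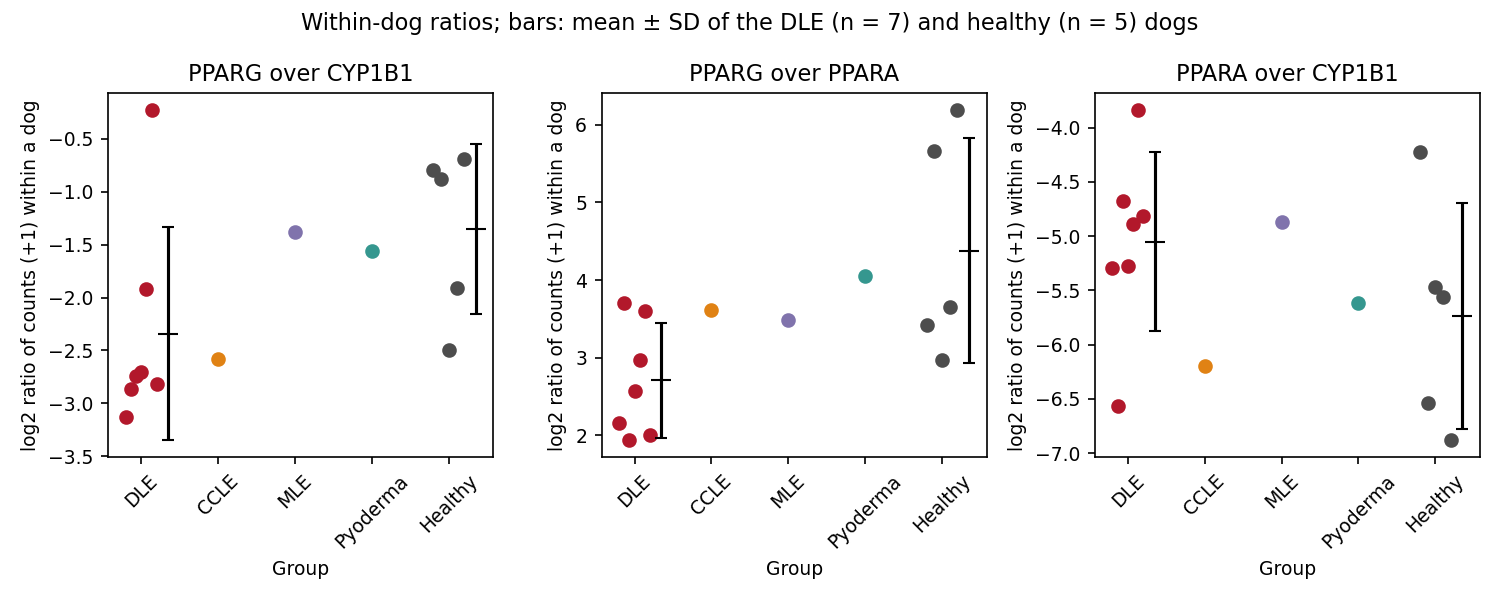
Within-dog log2 ratios of raw counts (plus 1) for 3 pairs of genes, by group. Points are dogs and bars are the mean ± SD of the DLE and healthy dogs. For PPARG over CYP1B1, DLE dog 6 stands at -0.23, above the other 6 DLE dogs, and 5 DLE dogs lie below all healthy dogs.

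The panel probes most like each gene were found by the root mean square difference over the 15 dogs, on log2 counts with each probe's mean subtracted. Among probes with a symbol, CXCL12, a chemokine of fibroblasts and other stromal cells, was nearest to PPARG (0.77) and to CYP1B1 (0.61), where the median over all probes was 1.86 for PPARG and 1.46 for CYP1B1. PPARG was followed by TACR1, the receptor of substance P (0.78), and ADRB1, the beta-1 adrenergic receptor (0.89). CYP1B1 was followed by EDA, the ectodysplasin ligand of skin appendage development (0.66), and KIT, the stem cell factor receptor of mast cells and melanocytes (0.68). These distances follow the difference between the groups, and they say nothing of shared control.

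EDA (0.40) and IFNB1, interferon beta (0.43), were nearest to PPARA, followed by CXCL12 (0.61). IFNB1 passed the background limit in 6 of 15 dogs, and ADRB1 in 9. Nearest to FMO1, whose values are background, were PTGER4, a prostaglandin E2 receptor (0.43), KIT (0.53) and the chemokine CCL25 (0.53). CCL25 passed the limit in 4 of 15 dogs. Probes without a symbol that lay nearer than the third named probe numbered 2 for PPARG, 5 for PPARA, 7 for CYP1B1 and 6 for FMO1.

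CXCL12 and EDA fell in DLE skin as well. CXCL12 averaged 2060 ± 946 normalised counts in DLE dogs (SD, n = 7) and 8186 ± 1362 in healthy dogs (n = 5), and EDA 54.0 ± 16.2 in DLE dogs and 139 ± 36.9 in healthy dogs. The log2 change of EDA was -1.37 ± 0.27 (SE, edgeR adjusted p = 0.000717). With spike-in scaling EDA was not called (-1.02), and with the control-row pattern as a block neither was (EDA -0.88, CXCL12 -0.92, edgeR adjusted p = 0.203 and 0.193).

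**Figure D4:**
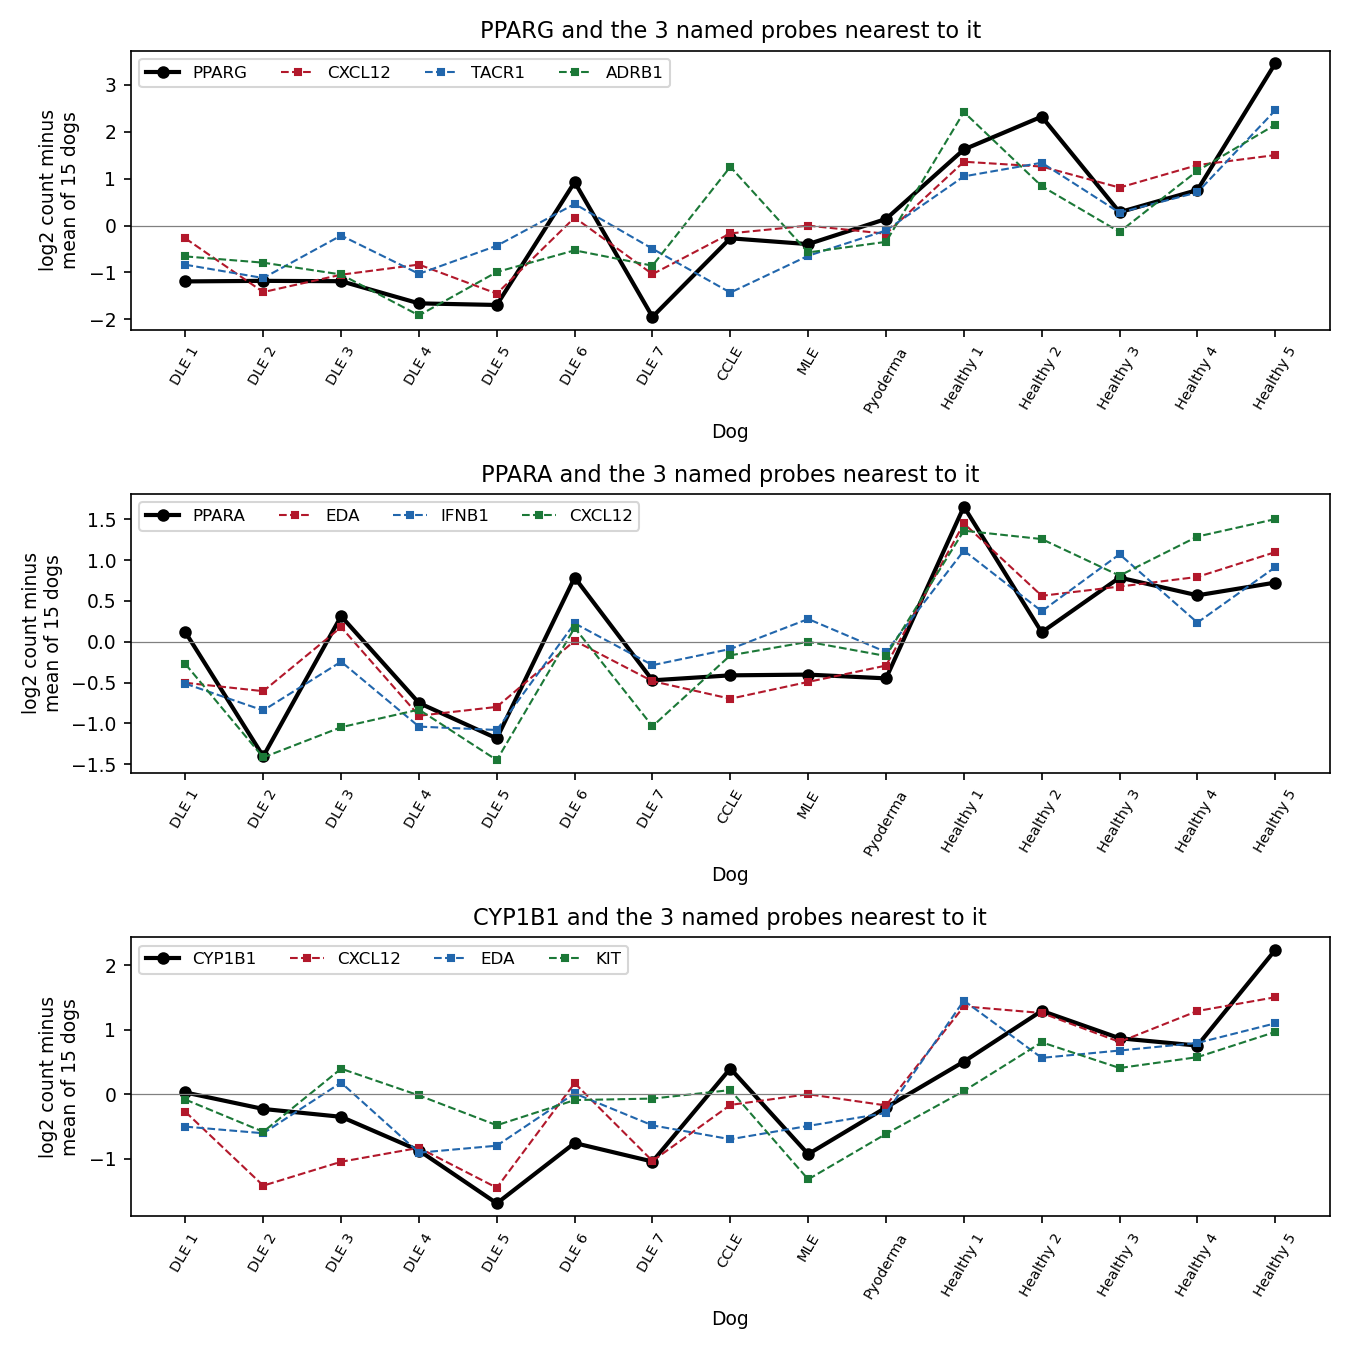
Log2 normalised count (plus 1) minus the mean of 15 dogs, for PPARG, PPARA and CYP1B1 (black) and the 3 named probes nearest to each (coloured). PPARG and CXCL12 are both highest in healthy dog 5 and both highest among DLE dogs in dog 6.

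Of 33 written partners and targets of PPAR receptors and 34 written genes of xenobiotic metabolism and the aryl hydrocarbon receptor, none matched a probe with a symbol. The same held for 13 sebaceous and adipose genes and 11 hair follicle genes. The 88 probes without a symbol could not be matched to the lists. The content of glands and fat in a biopsy could therefore not be read here. Of 25 steroid, retinoid and eicosanoid genes 2 matched. PTGER4 was lower in DLE (log2 -1.0, edgeR adjusted p = 0.00226), but was not called with reference gene scaling (-0.29), with spike-in scaling (-0.49) or with the pattern as a block (-0.27). HSD11B1, which forms active cortisol from cortisone, had 360 ± 292 normalised counts in DLE dogs (SD, n = 7) and 716 ± 297 in healthy dogs (n = 5, edgeR adjusted p = 0.116). HSD11B1 was called lower with DESeq2 size factors (log2 -1.33), panel median (-1.72) and quantile scaling (-1.66).

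Markers of other skin cells also differed between the groups, and in a bulk biopsy fewer cells of a type and less RNA per cell cannot be told apart. The 2 listed stromal genes among probes with a symbol were COL1A1, a chain of type I collagen, and CXCL12. They summed to 22273 to 52352 normalised counts in DLE dogs and 42367 to 143368 in healthy dogs. Both were called lower in DLE, but COL1A1 (log2 -1.17) was not called with reference gene (-0.53) or spike-in scaling (-0.81) or with the pattern as a block (-0.24). In DLE dog 6, the highest DLE dog for PPARG, COL1A1 (48510), CXCL12 (3842) and HSD11B1 (847) were also the highest of the DLE dogs. So was the keratinocyte gene KLK7 (3348). The keratinocyte genes KRT5 (26994) and KRT14 (13418) and the melanocyte gene MC1R (11.0) were the lowest of the DLE dogs there. Other genes of the written lists lay between. The part of these genes in the result was not tested.

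Of 4 keratinocyte markers KRT14 was called higher in DLE (log2 1.32, edgeR adjusted p = 0.0243), with sums of 87677 to 261687 in DLE dogs and 64260 to 131878 in healthy dogs. KRT14 was not called under panel median (0.67) or quantile scaling (0.85) or with the pattern as a block (-0.03). T cell (2 of 2), B cell (1 of 1) and NK cell markers (1 of 1) were called higher in DLE, and 37.7% of all probes were. FOXP3 and CD40LG, the T cell markers, summed to 58.8 to 184 normalised counts in DLE dogs and 20.4 to 33.0 in healthy dogs. MS4A1, the B cell marker, ranged from 81.6 to 300 in DLE dogs and from 14.2 to 21.8 in healthy dogs. The healthy means of MS4A1 (18.4), CD40LG (15.2) and FOXP3 (10.1) lay near background. The low control rows averaged 16.3 ± 6.07 in healthy dogs (SD, n = 5) on the same scale. KLRD1, of NK cells, ranged from 84.9 to 358 in DLE dogs and from 35.3 to 60.3 in healthy dogs.

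Mast cell markers (2 of 2, KIT and MS4A2) were called lower in DLE under TMM, as 24.0% of all probes were, but not with reference gene or spike-in scaling. With the pattern as a block MS4A2 was called (log2 -1.55, edgeR adjusted p = 0.0181) and KIT was not (-0.05). Their sums were 406 to 676 in DLE dogs and 698 to 980 in healthy dogs. Of the macrophage markers CD86 was called higher and CD163 lower. CD163 was not called with reference gene (log2 -0.75) or spike-in scaling (-1.07), but was with the pattern as a block (-1.78, edgeR adjusted p = 0.00993), where CD86 was not (0.86, adjusted p = 0.0836). Their sums were 1023 to 2197 in DLE dogs and 774 to 3040 in healthy dogs. None of 3 melanocyte markers was called, with sums of 43.6 to 832 in DLE dogs and 75.4 to 779 in healthy dogs. The part of these cell types in the lower PPARG, PPARA and CYP1B1 counts was not tested.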

How the data were processed

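The deposited values are whole reporter counts per probe, for 160 panel probes and 14 ERCC control rows in 15 dogs, as the authors deposited them. Extraction used a kit for fixed tissue, per the labels' protocols. The sources used here name no counting software, background subtraction or scaling. Members and lists were chosen with earlier results of these data known. Symbols came from the RefSeq gene table of UU_Cfam_GSD_1.0 (72 of 160 probes matched), with no coordinates used. The sequences of probes and genes were not used here.

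Counts were scaled by TMM over the 160 panel probes and tested with edgeR 4.0.16 (R 4.3.3; glmQLFit, glmQLFTest, two-sided, 7 DLE against 5 healthy dogs, filterByExpr). HPRT1 and RPL13A were not tested, which left 154 of 158 probes. Alternatives used limma 3.58.1 and DESeq2 1.42.0. SE is the size of the log2 change divided by the square root of the F statistic. The named genes were the 4 members, the 3 named probes nearest to each and the panel members of the written lists. Samples were treated as different dogs, since the design text counts dogs, and p-values cover the spread between these samples. No 2 samples of a group were near-identical (chi-square of their counts at least 162 times its degrees of freedom). On simulated data for DLE against healthy (155 probes, 40 changed, 20 runs), the edgeR step recovered 29.6% of 2-fold and 84.9% of 4-fold changes. In these runs 3.44% of calls were false. The simulation changed equally many probes up and down and held no control-row pattern, whereas 61.7% of probes were called in the real comparison. Its share of false calls therefore does not carry over to the real data. Case and margin numbers in the labels are not said to mark shared animals.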

Additional observations from a re-analysis of the deposited data

Results flagged for a closer look

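PPARG in DLE dog 6 stood at 583 normalised counts, and its gap to the next of the 7 DLE dogs was 0.89 of the whole DLE range, above Dixon's 95% critical value. The log2 ratio of PPARG to CYP1B1 in the same dog was -0.23, with a gap of 0.58 of the range, also above it. For normally distributed values chance flags about 1 in 20 groups. The normalised counts were examined without a log, so that rate need not hold for them. Of the 12 groups examined 2 passed the value here, both through this dog and not independent of each other. PPARA was also highest in this dog among DLE dogs, at 46.9 normalised counts, without passing the critical value. The cause was not tested.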

How the results depend on the processing

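PPARG and CYP1B1 kept their direction and their call under every alternative with a test except the control-row pattern as a block, where PPARG was at log2 -1.62, CYP1B1 at -0.65 and PPARA at -0.53 (edgeR adjusted p = 0.228, 0.342 and 0.608). Within the pattern of the DLE, MLE and pyoderma dogs the differences were -1.18 for PPARG, -0.52 for CYP1B1 and 0.0742 for PPARA, the last with the opposite sign, and within the pattern of the CCLE and healthy dogs CYP1B1 differed by -0.73. PPARA also lost its call with reference gene scaling (-0.36), spike-in scaling (-0.79) and background subtraction (-1.60), and with 1 dog left out it lay between -1.35 (DLE dog 6 omitted) and -0.79 (healthy dog 1 omitted). The number of probes called was 95, of which 58 were higher and 37 lower, and 40 (34 higher, 6 lower) with the pattern as a block, whose cause was not tested. Scaling moved the split, to 83 higher and 17 lower with reference genes, 57 and 17 with spike-ins, 45 and 52 with quantiles and 44 and 63 with the panel median.

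With the replicate block, the log2 changes were -3.05 for PPARG, -1.39 for PPARA and -1.70 for CYP1B1, all called (edgeR adjusted p = 0.00252, 0.00759 and 0.0203), with 85 probes called. The labels tie the numbers to no shared animal, batch or day, and the correlations of same-numbered dogs' deviations ran from -0.14 to 0.18, not all above 0.1, so the dogs were taken to share only a number. As a hint from the data, 4 of 5 DLE dogs correlated best with their own number.

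The PPARG to PPARA ratio moved to -0.81 after background subtraction and ranged from -2.02 to -1.22 with 1 dog left out. PPARG to CYP1B1 ranged from -1.34 to -0.82, and PPARA to CYP1B1 turned to -0.29 after background subtraction. PPARA to FMO1, from which nothing is read because FMO1 lay at background, had -0.29 with a range of -0.53 to 0.0039, changing sign without healthy dog 1. The genes among PPARG, PPARA and CYP1B1 below all healthy dogs numbered 3 in each of the CCLE, MLE and pyoderma dogs. With spike-in scaling they numbered 1 in the CCLE dog, 0 in the MLE dog and 0 in the pyoderma dog, and with reference gene scaling 1 in the MLE dog and 0 in the pyoderma dog. FMO1 passed a limit of the mean plus 3 SD in 1 dog, against 2 at the limit used. The counts of PPARA and FMO1 lie near the control rows, which limits their precision, and depth and low expression were not separated.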
